A study of Sus scrofa with 5 samples.

Results

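RGS5 pericytes of the piglet cecum were defined by the counts of 5 genes in single cells. A barcode with at least 200 detected genes was taken when it held at least 3 UMIs of RGS5 (unique molecular identifiers, each marking 1 captured RNA molecule), at least 1 UMI of NOTCH3 and KCNJ8 together, at most 2 UMIs of ACTG2 and 0 UMIs of PECAM1. This rule found 1517 of 72701 cells, or 2.09%. The cells came from the cecum of male large white piglets fed on maternal milk and sampled at birth (d0) and on d1, d7, d14 and d21. Each age was 1 library, in which cells of 5 piglets were mixed after release from the tissue with EDTA and then trypsin, so no age had a replicate, ages and libraries cannot be told apart, and no p-value is given. No other treatment or genotype distinguished the libraries.

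Pericytes are mural cells that sit in the basement membrane around capillaries and small venules. Endothelial cells recruit them with platelet-derived growth factor B, which acts on PDGFRB, and Notch signalling through NOTCH3 helps to keep their identity. They share a contractile apparatus with vascular smooth muscle, take part in setting capillary tone, and deposit basement membrane together with the endothelium. RGS5 limits signalling from G protein-coupled receptors, KCNJ8 and ABCC9 form the ATP-sensitive potassium channel of these cells, PCP4 modulates calmodulin, and GJC1 encodes the gap junction protein connexin 45. ACTG2 is the actin of visceral smooth muscle and PECAM1 an adhesion protein of endothelium.

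On the pig genome assembly Sscrofa11.1 the genes of the rule and the other 2 given markers lie apart. RGS5 lies on chromosome 4 at 87286953 to 87340816, NOTCH3 on chromosome 2 at 62364507 to 62402348 and KCNJ8 on chromosome 5 at 51695927 to 51704402. PCP4 lies on chromosome 13 at 203412479 to 203479216 and GJC1 on chromosome 12 at 18526060 to 18560221. The excluding genes are ACTG2 on chromosome 3 at 69097366 to 69121542 and PECAM1 on chromosome 12 at 14667643 to 14723296.

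The pericytes were found almost only in the libraries of d1, d14 and d21. There were 429 of 14142 cells at d1, 517 of 16177 at d14 and 563 of 16892 at d21, but 6 of 15218 at d0 and 2 of 10272 at d7. The shares were 3.03% at d1 (exact 95% interval 2.76 to 3.33), 3.20% at d14 (2.93 to 3.48) and 3.33% at d21 (3.07 to 3.61), so these 3 intervals overlapped. They moved under several alternatives, among them to 1.24%, 1.75% and 2.06% when the rule was applied after thinning to 1000 UMIs, and to 1.66%, 2.36% and 2.11% without pericytes holding EPCAM, PTPRC or CD3E. At d0 the share was 0.0394% (0.0145 to 0.0858) and at d7 it was 0.0195% (0.00236 to 0.0703). RGS5 was nearly missing from the whole of both libraries, with 58 UMIs at d0 and 64 at d7 in all cells, against 5433 at d1, 13656 at d14 and 9353 at d21.

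**Figure D1:**
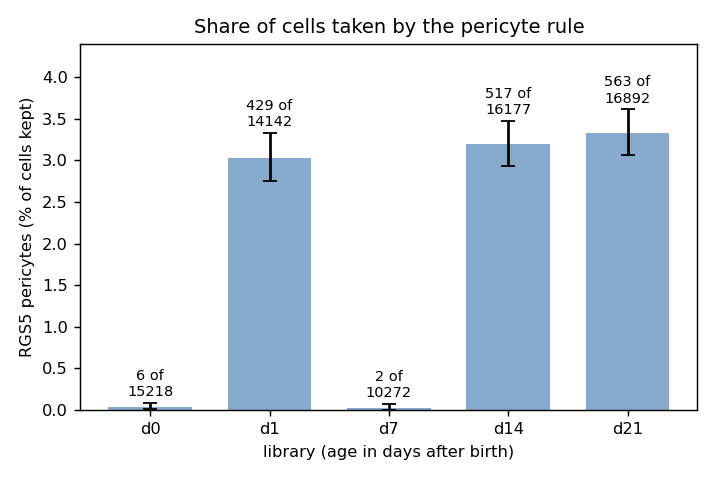
Percentage of cells kept in each library (age on the x axis) that met the pericyte rule, with the number of pericytes and of cells above each bar and exact 95% intervals as error bars, which cover counting error only. The bars of d1, d14 and d21 stand at 3.03%, 3.20% and 3.33%, and those of d0 and d7 are close to 0.

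Smooth muscle cells were also few in the same 2 libraries. Cells gated as fibroblasts (at least 3 UMIs of DCN with PDGFRA or LUM, and few of RGS5 and ACTG2) numbered 52 of 15218 at d0 and 127 of 10272 at d7, and 1175 of 14142 at d1, 1288 of 16177 at d14 and 242 of 16892 at d21, so that fibroblasts were not few at d7 beside d21. Cells gated as visceral smooth muscle (at least 3 UMIs of ACTG2 with DES or MYH11) numbered 0 at d0 and 6 at d7, against 76, 400 and 60 at d1, d14 and d21. Endothelial cells (PECAM1 with at least 2 UMIs of VWF and CDH5) numbered 35 and 8 at d0 and d7, and 1556, 27 and 46 at d1, d14 and d21. Whether these counts follow the tissue or the release of cells from it was not tested. Levels below are therefore given for d1, d14 and d21, which held 1509 of the 1517 pericytes.

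The pericytes carried a median of 2987 UMIs at d1, 4917 at d14 and 3048 at d21, and 1755527, 3500497 and 2240927 counts in all. Mitochondrially encoded genes took 8.37%, 4.98% and 5.70% of these counts, against 11.0%, 5.51% and 7.94% over all cells of the same libraries. Levels of genes are UMIs per 10000, summed over the pericytes of 1 library and divided by their total count. A count of 3, the limit that a count of 0 allows, corresponded to a level of 0.0171 at d1, 0.00857 at d14 and 0.0134 at d21. Intervals of levels are exact Poisson intervals and cover counting error only. The 5 libraries shared between 37 and 79 barcode sequences per pair of libraries, and 0 of them were pericytes in both libraries.

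Cells just inside and just outside each limit of the rule, given here as a description, lay closest at the RGS5 limit. The 135 pericytes with exactly 3 RGS5 UMIs had a PDGFRB level of 4.23 and a GJC1 level of 3.73, against 5.30 and 4.86 in 163 cells with 2 RGS5 UMIs that met the other limits. The 252 cells with 1 UMI of NOTCH3 and KCNJ8 had a MYH11 level of 4.64 and a DCN level of 2.25. The 241 cells with 0 UMIs of both genes, left outside, had 12.2 and 11.3. The 86 pericytes with 1 or 2 ACTG2 UMIs had an ACTA2 level of 50.6, and the 81 cells with 3 or more had 105. With 1 PECAM1 UMI, 51 cells stayed outside, with levels of 0.0814 for VWF, 0.109 for CDH5 and 5.99 for DCN, against 0.0173, 0.00534 and 1.15 in the pericytes.

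The 5 given markers were present throughout, and their levels are a description, since 3 of them chose the cells. RGS5 stood at a level of 21.1 at d1 (20.5 to 21.8), 28.8 at d14 (28.3 to 29.4) and 32.9 at d21. After every cell was thinned to 1000 UMIs, 89.4%, 91.8% and 93.3% of the pericytes held an RGS5 UMI, against 3.88%, 1.23% and 1.85% of gated T cells, which should lack the gene. The pericytes held 68.3%, 73.9% and 78.8% of the RGS5 UMIs of their libraries. PCP4 and GJC1, which the rule did not use, were at levels of 5.44, 5.80 and 7.97 and of 4.77, 7.20 and 9.82 in age order. GJC1 was seen in 41.7%, 50.9% and 62.1% of the thinned pericytes, and in 0%, 1.12% and 0.848% of the T cells.

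Further pericyte genes were found in the cells. PDGFRB, the receptor for platelet-derived growth factor B, was at levels of 4.71, 5.92 and 10.5 at d1, d14 and d21. MCAM, an adhesion molecule of mural cells, was at 3.34, 4.77 and 6.31. ABCC9, the regulatory subunit that pairs with KCNJ8, was at 1.30, 1.55 and 2.41, and CSPG4, the NG2 proteoglycan, at 0.951, 1.42 and 1.77. HEYL, a Notch target, and the forkhead factor FOXS1 were at 1.65, 2.03 and 2.49 and at 0.798, 1.47 and 1.79. Of 12 measured genes on the list of other pericyte markers, 10 were above the other cells of the library at each of the 3 ages, as were 37% of the 9577 genes with at least 30 UMIs in 1 of these libraries. STEAP4 had 0, 1 and 0 UMIs at d1, d14 and d21, and VTN stayed below a level of 0.0858 at each age.

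**Figure D2:**
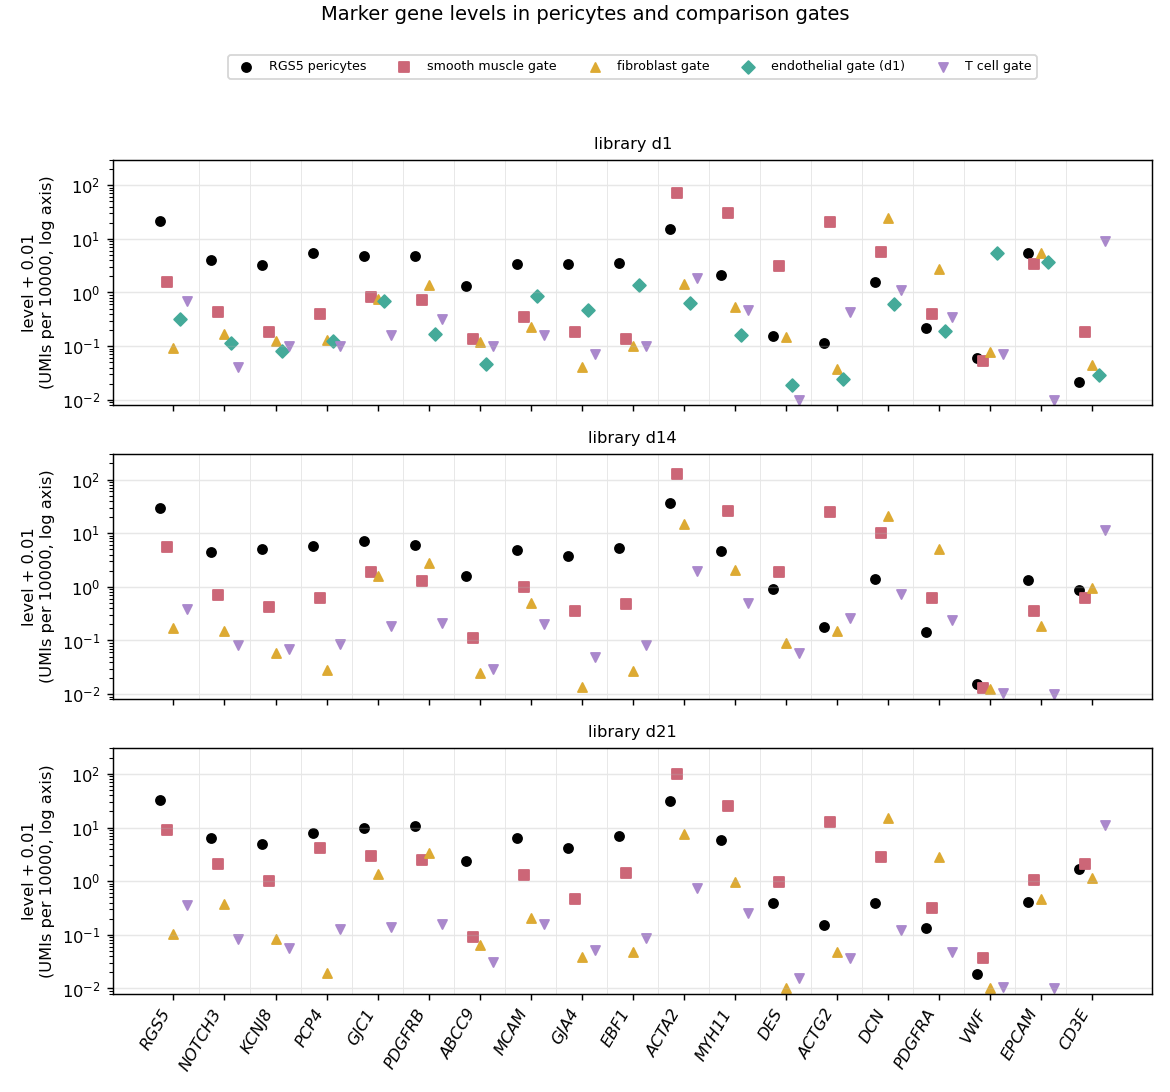
Levels of marker genes (y axis, UMIs per 10000 with 0.01 added, log axis) in the RGS5 pericytes and in cells gated as smooth muscle, fibroblasts, endothelium (d1 only) and T cells, with 1 panel for each of the libraries d1, d14 and d21. The pericytes have the highest RGS5, NOTCH3, KCNJ8, PCP4, GJC1 and PDGFRB of the groups shown, the smooth muscle gate the highest ACTA2, MYH11, DES and ACTG2, and the fibroblast gate the highest DCN and PDGFRA.

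Some defining markers of endothelium were at 0, and others were not. PECAM1, excluded by the rule, and CLDN5 were at 0 UMIs at d1, d14 and d21, and CDH5 at 0 at d14 and d21. The summed level of the 10 endothelial genes was 3.34, 2.83 and 2.33, against 10.4, 1.70 and 0.833 in the other cells of the libraries, and was led by PLVAP at d1 (1.62) and by ESAM afterwards (1.34 at both ages). The glial gene S100B was at 0.296, 0.3999 and 0.411. The 3 erythroid genes summed to 0.0114, 0 and 0.0580, and 3 mast cell genes to 0.0456, 0.266 and 0.152.

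Markers of epithelium and immune cells were present in some pericyte barcodes and differed between the libraries. A UMI of EPCAM, PTPRC or CD3E was held by 45.5% of the pericytes at d1, 26.1% at d14 and 36.8% at d21. The 6 epithelial genes summed to a level of 24.4, 13.6 and 2.52, led by KRT8 and KRT19, and to 4.17, 0.299 and 1.09 without those barcodes. The 12 immune genes summed to 0.906, 9.38 and 6.06, with JCHAIN the most abundant at d14 (4.64) and PTPRC at d21 (1.79), and to 0.971, 3.64 and 2.84 without them. After thinning, EPCAM was seen in 19.8% of the pericytes and 20.8% of the fibroblasts at d1, and CD3E in 3.88% and 4.30% at d14. At d14 EPCAM was seen in 0.777% of the pericytes and 0.391% of the fibroblasts. The part of free RNA and of doublets was not tested.

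At d14, 3 pericyte barcodes with more than 50000 UMIs, each with EPCAM, held 12.1% of all pericyte counts. The largest had 209496 UMIs, of which only 3 were RGS5, and carried 68.0% of the KRT8, 87.7% of the MUC2 and 92.9% of the FCGBP UMIs of the pericytes of that library. Results that rest on such barcodes are given with and without the pericytes that held EPCAM, PTPRC or CD3E.

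Within each library the pericytes were set beside other gated cells, as a description, since both sides were chosen by expression. Genes compared had at least 30 UMIs over the pericytes, which left out genes low in the pericytes. Counts above and below a gate are therefore not to be set against each other. Of 11134 genes, 187 (1.68%) were more than 2-fold above the smooth muscle gate in all 3 libraries and 153 (1.37%) more than 2-fold below it. Against the fibroblast gate these were 240 (2.16%) and 228 (2.05%). Against endothelium, compared only at d1, they were 559 (5.02%) and 505 (4.54%). Against the T cell gate, which shared 1, 41 and 48 barcodes with the pericytes, 1074 (9.65%) were above and 312 (2.8%) below, and against the epithelial gate, with 35, 2 and 5 shared barcodes, 926 (8.32%) and 337 (3.03%).

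Most contractile genes were below the visceral smooth muscle gate in the pericytes, and some were above fibroblasts. No gate of vascular smooth muscle was made, so the pericytes were not set beside such cells. ACTA2, the alpha actin of vascular smooth muscle, was at a level of 14.9, 36.3 and 31.5 in the pericytes, 71.8, 127 and 98.9 in the smooth muscle gate and 1.41, 14.9 and 7.67 in the fibroblasts. MYH11, the smooth muscle myosin heavy chain, was at 2.14, 4.67 and 5.74 in the pericytes and 29.7, 26.0 and 24.7 in smooth muscle. Of 13 tested genes of the contractile list, 8 were more than 2-fold below smooth muscle at each age, among them TAGLN, MYL9, MYLK and TPM1. MYH11, which helped to define the smooth muscle gate, was also among the 8. Of the same 13, 6 were more than 2-fold above the fibroblasts at each age and 0 below. CALD1 was not among them, with 16.1, 26.6 and 32.5 in the pericytes and 15.6, 21.4 and 30.5 in smooth muscle. PPP1R14A, which encodes an inhibitor of myosin phosphatase, was the only contractile gene more than 2-fold above smooth muscle, with 17.2, 17.5 and 24.0 against 7.84, 8.27 and 9.81.

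The genes of widest margin over smooth muscle spanned membrane and matrix proteins. GJA4, the gap junction protein connexin 37, was at a level of 3.45, 3.67 and 4.22 in the pericytes against 0.170, 0.342 and 0.465. LAMC3, a laminin gamma chain, was at 1.24, 1.01 and 1.85 against 0, 0.0579 and 0.0547, where the value of 0 rests on 76 cells. NDUFA4L2, a mitochondrial protein often induced in hypoxia, was at 1.27, 3.07 and 2.43 against 0, 0.353 and 0.219. CYGB (cytoglobin), ABCC9, CPM (carboxypeptidase M), COLEC11, RASL12 and ADAP2 were also among the 10. In the other direction stood ACTG2, which the rule limited, and HHIP, a binding protein of hedgehog ligands, at 0.154, 0.171 and 0.0759 against 16.2, 10.3 and 6.91. ADGRD1, CDC42EP3, ENHO, GJA1 and SOD3 were also more than 2-fold below smooth muscle in each library.

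Against fibroblasts the widest margins, after RGS5, were those of GJA4, PCP4 and EBF1, an early B cell factor that is also a regulator of mural cells. EBF1 was at 3.55, 5.21 and 6.85 in the pericytes and at 0.0927, 0.0174 and 0.0372 in the fibroblasts. ANGPT2, a ligand of the endothelial receptor TEK, was at 2.60, 3.19 and 4.35 against 0.101, 0.00994 and 0.00929. CYSLTR2, a receptor of cysteinyl leukotrienes, was at 1.58, 1.74 and 3.04 against 0.0280, 0.0261 and 0.0650. Of the 10 fibroblast genes, 9 were more than 2-fold below the fibroblast gate in each library. DCN, PDGFRA and LUM, which defined that gate, were among them, DCN with 1.58, 1.42 and 0.379 against 24.2, 20.6 and 14.9. Of 17 genes of fibrillar and elastic matrix 10 were below it, and 1, COL5A3, was above it with 2.64, 2.52 and 4.66 against 0.737, 0.432 and 0.455.

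Against the endothelial gate of d1, where both kinds of cell were numerous, genes differed in both directions. RGS5 and NOTCH3, which the rule used to choose the pericytes, had log2 ratios of 5.70 and 4.34 over endothelium. PCP4, ACTA2 and PDGFRB, which the rule did not use, had 4.69, 4.36 and 4.23. Of 13 contractile genes 11 were more than 2-fold above endothelium and 0 below, against 5.02% and 4.54% of all genes in this 1 library. FABP5, a fatty acid binding protein, and SOX18 had ratios of −6.65 and −5.32. Of 20 interferon and antigen presentation genes 17 were more than 2-fold below the endothelium and 0 above, against 4.54% and 5.02% of all genes.

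Signalling genes that were above both smooth muscle and fibroblasts in every library belonged to several pathways. For Notch these were NOTCH3, which the rule used to choose the pericytes, the Notch targets HEYL and HEY1, and NRARP, a feedback inhibitor. NRARP was at 0.627, 1.51 and 1.77 in the pericytes against 0, 0.171 and 0.519 in smooth muscle. For the nitric oxide pathway, whose guanylate cyclase relaxes mural cells, GUCY1A3 was at 2.14, 3.31 and 3.42, GUCY1B3 at 3.16, 3.94 and 4.73, and GUCY1A2 at 1.98, 1.80 and 2.70. Of 15 tested vasoactive receptors 2 were above smooth muscle and 4 above fibroblasts, against 1.68% and 2.16% of all genes, while P2RY14 was below smooth muscle and EDNRB and PTGER4 below fibroblasts. Those above both were ADRA1A, an alpha adrenergic receptor, at 0.718, 0.991 and 2.18, and AVPR1A, a vasopressin receptor, at 0.348, 0.840 and 0.585. Of 15 tested ion channel and pump genes 4 were above smooth muscle and 5 above fibroblasts, KCNJ8 of the rule among both, with RYR2 below fibroblasts. Those above both were KCNJ8, ABCC9, KCNE4 and the chloride channel ANO1, at 0.986, 1.18 and 1.58. EDNRA, the endothelin receptor, was at 1.07, 1.54 and 1.53 and was more than 2-fold above fibroblasts but not above smooth muscle in each library.

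The pericytes were rich in basement membrane genes, although most of these were not more than 2-fold apart from the other stromal gates. COL4A1 was at a level of 28.6, 36.7 and 43.0, and COL4A2, the partner chain of type IV collagen, at 13.2, 12.5 and 16.6. The 19 genes of the list summed to 65.8, 84.3 and 103 in age order, against 16.1, 16.0 and 5.52 in all other cells of the same libraries. LAMC3 and NID2 (nidogen 2) were more than 2-fold above both gates in each library, and COL15A1 and HSPG2, the proteoglycan perlecan, were below both. ITGA1, an integrin subunit for collagen and laminin, was at 7.50, 11.9 and 15.9 against 1.66, 2.92 and 6.56 in smooth muscle. COL4A1 and IGFBP7, a secreted binding protein at 25.1, 41.7 and 42.9, were among the 10 most abundant genes of the pericytes when mitochondrially encoded genes and ribosomal protein genes (RPL and RPS) were left out. The other 8 were TMSB10, TMSB4X, PTMA, FTH1, TPT1, UBB, EEF1A1 and ZC3H10.

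Between d1 and d14, 349 of 9409 genes (3.71%) were more than 2-fold higher and 316 (3.36%) more than 2-fold lower in the pericytes. Genes counted here had at least 30 UMIs in either library, ratios are of levels with 0.1 added, and more than 2-fold is a rule of size and no test. The median log2 ratio of all tested genes was 0.18, and with ratios centred on it the counts were 232 higher and 412 lower. Without the pericytes holding EPCAM, PTPRC or CD3E they were 309 and 116 of 7217 genes. In the fibroblast gate 579 of 11695 genes were higher and 552 lower between the same libraries, and in the T cell gate 790 and 195 of 11764.

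Some contractile genes were higher at d14 than at d1. Of 13 tested, 5 passed 2-fold upward and 0 downward, against 3.71% and 3.36% of all genes. The median log2 ratio was 0.95, against 0.18 for all genes. MYL9, a myosin light chain, was at a level of 2.10 at d1 (1.89 to 2.32), 7.31 at d14 (7.03 to 7.60) and 5.95 at d21 (5.63 to 6.28), with a log2 ratio of 1.75 (counting interval 1.64 to 1.96). ACTA2, MYH11, MYLK and TAGLN were the other 4, with log2 ratios of 1.27, 1.09, 1.36 and 1.26. TPM2 and PPP1R14A were close to level, at 5.01 and 5.63 and at 17.2 and 17.5. Without the pericytes holding EPCAM, PTPRC or CD3E 6 of 13 passed, and in the fibroblast gate 10 of 13 did, with a median of 1.58. Of all genes, 4.28% were higher in the pericytes without those barcodes and 4.95% in the fibroblast gate. In the smooth muscle gate 1 of 14 passed, near the 9.91% of all genes higher in that gate, with a median of 0.41. In the T cell gate 0 of 13 passed, where 6.715% of all genes were higher, with a median of −0.04. DES, the intermediate filament of muscle, was at 0.142, 0.906 and 0.379 in the pericytes.

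Many genes of the interferon and antigen presentation list differed between d1 and d14. Of 20 genes, 15 were more than 2-fold higher and 1 lower, against 3.71% and 3.36% of all genes. The list's median log2 ratio was 2.06. IFI6, an interferon-induced protein, was at a level of 1.04 at d1 (0.892 to 1.20), 20.5 at d14 and 37.7 at d21, and at 2.13, 28.4 and 55.9 in the fibroblasts. It was seen in 9.65%, 67.4% and 88.9% of thinned pericytes and in 6.80%, 70.3% and 89.5% of T cells, so fibroblasts and T cells showed the same order. SLA-2, a classical class I histocompatibility gene of the pig, was at 1.47, 14.9 and 19.6, ISG15, a ubiquitin-like modifier, at 0.536, 4.77 and 6.53, and MX1, an antiviral GTPase, at 0.103, 1.35 and 2.23. The class II genes SLA-DRA and CD74 stood highest at d14, at 0.729, 4.17 and 1.02 and at 1.04, 7.57 and 2.87. IRF1 was the member on the low side from d1 to d14, at 1.82, 0.660 and 1.37. From d14 to d21, 1 of 20 genes was higher and 3 were lower, SLA-DRA and CD74 among them, against 1.14% and 1.61% of all genes. Without the pericytes holding EPCAM, PTPRC or CD3E 2 of 19 were lower, against 0.919% of all genes. Without the sub-clusters of other cell types, described below, 0 of 19 were lower, against 0.803% of all genes. From d1 to d14 the same list had 15 higher and 1 lower in the fibroblast gate, where 4.95% of all genes were higher. It had 14 and 0 of 20 in smooth muscle, where 9.91% were higher, and 9 and 0 in T cells, where 6.715% were. In the epithelial gate it had 3 higher and 2 lower, with a median of −0.15, where 6.25% of all genes were higher and 6.596% lower. It had 15 higher and 1 lower of 19 in the pericytes without EPCAM, PTPRC or CD3E, against 4.28% and 1.61% of all genes. The immune markers also differed between these libraries, with 7 of 7 tested genes higher at d14, a median of 1.61, and 2 of 3 higher without those barcodes.

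Many genes of the immediate early and stress list were lower at d14 than at d1. Of 20 genes of the list, 11 were more than 2-fold lower at d14 and 2 higher, against 3.36% and 3.71% of all genes. The list's median log2 ratio was −1.08. FOS was at a level of 19.2, 7.19 and 9.72, FOSB at 9.84, 1.52 and 5.11, and ATF3 at 6.50, 1.54 and 3.17. ZFP36, which promotes the decay of inflammatory messenger RNAs, was at 10.7, 1.68 and 2.52, with a log2 ratio of −2.61 from d1 to d14. KLF4, a transcription factor, was at 3.01, 0.3999 and 0.620. The 2 higher genes were the chaperone genes HSP90AA1, at 12.3, 24.7 and 34.3, and DNAJB1, at 2.58, 6.29 and 11.2. Without the pericytes holding EPCAM, PTPRC or CD3E, 1 of 20 genes was higher and 12 were lower, against 4.28% and 1.61% of all genes. The fibroblast gate had 11 lower and 0 higher, where 4.72% of all genes were lower and 4.95% higher. The epithelial gate had 13 lower and 1 higher, where 6.596% were lower and 6.25% higher. The lower values at d14 were thus found in other cells of the library as well. These genes are also known to respond to the handling of tissue, whose part was not tested.

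**Figure D3:**
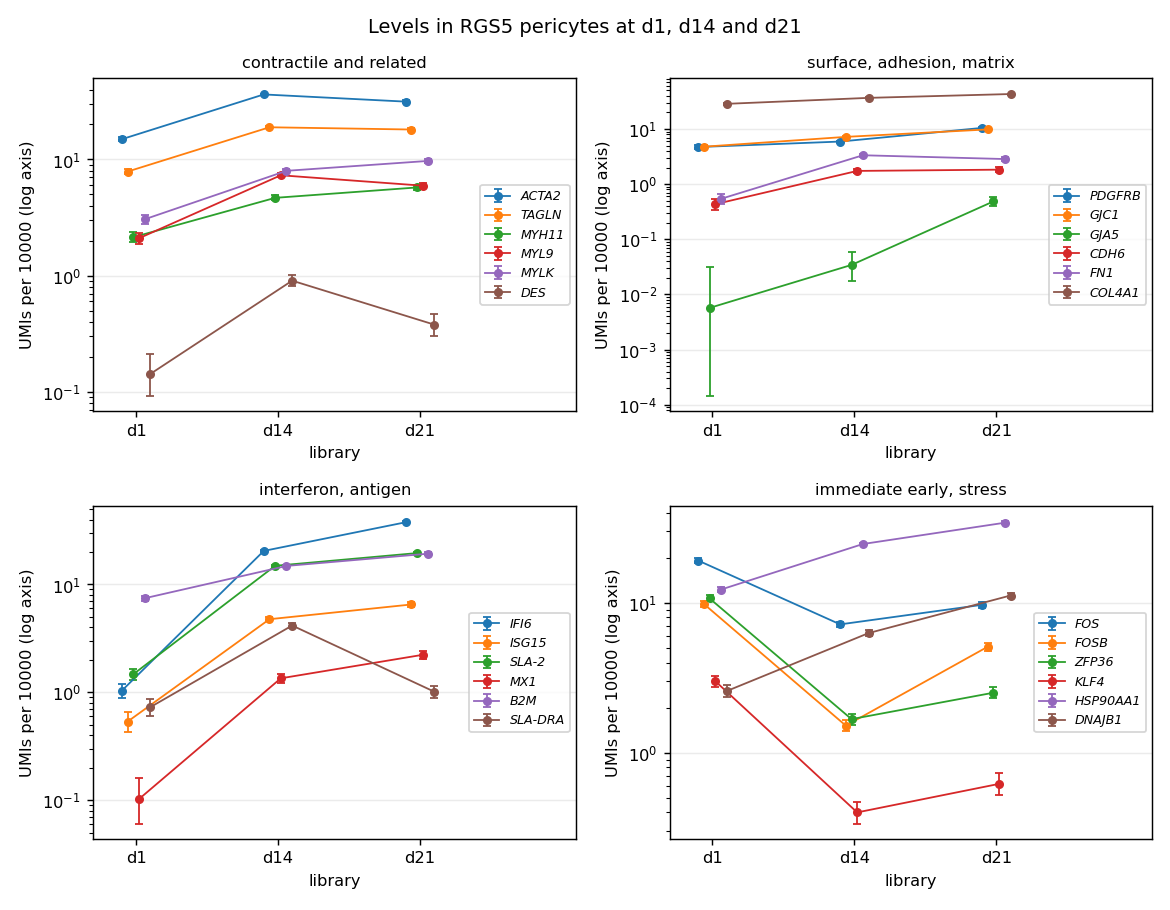
Levels of 24 genes in the RGS5 pericytes (y axis, UMIs per 10000, log axis) in the libraries d1, d14 and d21, in 4 panels by group, with exact 95% Poisson intervals for counting error. ACTA2 goes from 14.9 to 36.3 and IFI6 from 1.04 to 20.5 between d1 and d14, while FOSB goes from 9.84 to 1.52 and back to 5.11 at d21.

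The 10 largest ratios of d14 over d1, among genes at least as high in the pericytes as in the other cells of d14, held secreted proteins and 2 genes known from epithelium. IGFBP5 was at a level of 0.171, 2.15 and 2.15 in age order, with a log2 ratio of 3.06, and MGP, an inhibitor of calcification in vessels, at 0.940, 6.50 and 4.06. IGFBP5 was at 1.12, 3.54 and 4.82 in the fibroblast gate and at 1.66, 1.59 and 1.94 in the smooth muscle gate. MGP was at 0.231, 0.167 and 0.557 in the former and at 0.0852, 1.02 and 8.445 in the latter. OLFML2B, an olfactomedin-like matrix protein, was at 0.0228, 0.840 and 0.732, and in the fibroblast gate at 0.00431, 0.0112 and 0.0186. MMP1, a collagenase, was at 0.0228, 0.600 and 0.0446, and at 0.196, 2.25 and 0.0650 in the fibroblasts. SOX18, a transcription factor best known from endothelium, was at 0.0684, 0.760 and 0.312. COLEC10, C9H1orf186 and ISG12(A), an interferon-induced gene, were also among the 10. S100A2 and OLFM4, an epithelial stem cell marker, had log2 ratios of 3.40 and 3.26, but 0.21 and −0.44 without the pericytes holding EPCAM, PTPRC or CD3E.

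The 10 lowest ratios of d14 over d1, among genes at least as high in the pericytes as in the other cells of d1, began with ZFP36. After it came CXCL2, a neutrophil chemokine at 5.01, 0.946 and 1.36, GADD45A at 5.85, 1.44 and 1.60, and SOCS3, a cytokine feedback inhibitor at 4.93, 1.37 and 1.59. IL6 was at 0.393, 0.0514 and 0.0402 and ADAMTS4, a protease of proteoglycans, at 2.33, 0.671 and 1.20. CADM2, TCF7, NR4A3 and JUNB were the others. ZFP36, SOCS3 and JUNB were lower at d14 in the fibroblast gate too, with log2 ratios of −3.18, −2.32 and −2.45. For CXCL2, at −2.29 in the pericytes, the fibroblast gate had −0.13 and the T cell gate −2.95.

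The lists of pericyte, matrix, receptor, channel and transcription factor genes stand beside the same 3.71% of all genes higher and 3.36% lower from d1 to d14. Of the 5 given markers 0 passed 2-fold, with log2 ratios from 0.09 for PCP4 to 0.63 for KCNJ8. Of 11 other pericyte genes 2 were higher, HIGD1B (0.536, 1.70 and 1.87) and NDUFA4L2, and 1 was lower, ANPEP, an aminopeptidase also found in epithelium (0.826, 0.0457 and 0.00446). Without the pericytes holding EPCAM, PTPRC or CD3E 3 of 9 were higher and 0 lower, with ANPEP, at a log2 ratio of −1.55 in place of −2.67, not among the genes counted. Of 18 basement membrane genes 0 passed in either direction, and of 16 fibrillar and elastic genes 4 were higher, FN1 (fibronectin) at 0.541, 3.34 and 2.85 most of all. Of the 10 fibroblast markers 3 were higher too and 0 lower, and their summed level was 19.6, 34.95 and 34.7 in age order. Without the pericytes holding EPCAM, PTPRC or CD3E 3 of 16 fibrillar and elastic genes and 3 of 9 fibroblast markers were higher. Of 14 vasoactive receptors 4 were higher, among them P2RX1, an ATP-gated channel at 0.0968, 0.714 and 0.2499, and P2RY14 at 0.251, 1.08 and 1.18. Of 12 adhesion and gap junction genes 3 were higher, CDH6, THY1 and ITGA7, the first at 0.433, 1.74 and 1.83. PDGFA, a growth factor for PDGFRA-bearing cells, was at 0.701, 2.90 and 2.88, and ID3, a target of bone morphogenetic proteins, at 6.89, 16.9 and 12.1. Of 13 ion channel and pump genes and of 9 genes of the nitric oxide pathway 0 passed in either direction. Of 18 transcription factors NR2F1 was higher (0.211, 0.771 and 1.74) and GATA6 lower (0.273, 0.0571 and 0.0268), with a median of 0.16. Without those barcodes 2 of 17 were higher and 0 lower, and GATA6 had a log2 ratio of −0.92 in place of −1.25.

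Between d14 and d21 fewer genes stood apart. Of 9390 tested, 107 (1.14%) were more than 2-fold higher and 151 (1.61%) lower, with a median log2 ratio of 0.06. Without the pericytes holding EPCAM, PTPRC or CD3E the counts were 109 and 67 of 7289. Of 13 contractile genes 0 passed in either direction, as did 0 of the 5 given markers, whose median log2 ratio was 0.44. PDGFRB had a log2 ratio of 0.81 (0.74 to 0.91), and 0.82 without those barcodes. Of 13 ion channel and pump genes 1 was higher, CACNA1C, the L-type calcium channel, at 0.0798, 0.134 and 0.393 in age order, and the list's median was 0.62. CACNA1C did not pass without those barcodes, at a log2 ratio of 0.87.

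GJA5, which encodes connexin 40, a gap junction protein best known from arterial endothelium, had the largest ratio of d21 over d14. Its level was 0.00570 at d1 (1 UMI), 0.0343 at d14 (12 UMIs) and 0.486 at d21 (109 UMIs, 0.399 to 0.587), and it was seen in 5.99% of thinned pericytes at d21 against 0.0566% of T cells. In the smooth muscle gate GJA5 was higher at d21 too, at 0.0193 at d14 and 0.355 at d21 (60 cells). In the fibroblast gate it was at 0 at both ages. SYCP2, a protein of the synaptonemal complex, was at 0.0171, 0.0914 and 0.696, SIK1, a salt-inducible kinase, at 0.421, 0.229 and 1.24, and HAPLN1, which links hyaluronan to proteoglycans, at 0.245, 0.194 and 1.03. HAPLN1 was higher in the fibroblast gate at d14 and d21, at 0.220, 0.788 and 2.13 in age order. CXCL10, an interferon-induced chemokine, was at 0.427, 0.680 and 2.79, or with a log2 ratio of 1.22 in place of 1.89 without the pericytes holding EPCAM, PTPRC or CD3E. FOSB, BCR, NMUR1 (a receptor of neuromedin U), BRINP3 and ZFAT completed the 10. Some of these rises were seen in other gates. FOSB had log2 ratios of 1.43 in the fibroblast gate and 1.69 in the T cell gate, and SIK1 had 0.66 and 1.09. CXCL10 had −0.24 and −1.03 there. ADRA1A, 1 of 14 vasoactive receptors, NR2F1, 1 of 17 transcription factors, TGFB3, 1 of 18 TGF-beta and BMP genes, and COL4A4, 1 of 18 basement membrane genes, also passed 2-fold, with log2 ratios of 1.06, 1.08, 1.08 and 1.05, against 1.14% of all genes. The receptor and basement membrane lists each had 1 gene lower, against 1.61%. In the pericytes without EPCAM, PTPRC or CD3E the ratios were 1.04, 1.07, 0.99 and 0.94, so TGFB3 and COL4A4 no longer passed, and without the largest d14 barcode 0 of 14 receptors were higher.

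The 10 lowest ratios of d21 over d14 were genes known from intestinal epithelium, and rested on few barcodes. AGR2 was at 1.06, 2.26 and 0.147, KRT8, a keratin of simple epithelia, at 7.74, 5.05 and 0.839, and MUC2, the mucin of goblet cells, at 1.10, 0.723 and 0.00893. S100A2, PI3, LGALS3, REG4, LGALS2, FCGBP and DMBT1 were the others. Without the pericytes holding EPCAM, PTPRC or CD3E, KRT8 had a log2 ratio of 1.37 in place of −2.46 and AGR2 0.93 in place of −3.26, and FCGBP had −0.07 in place of −2.42. All 6 epithelial list genes were more than 2-fold lower with these barcodes, and without them 2 could be compared, both higher.

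**Figure D4:**
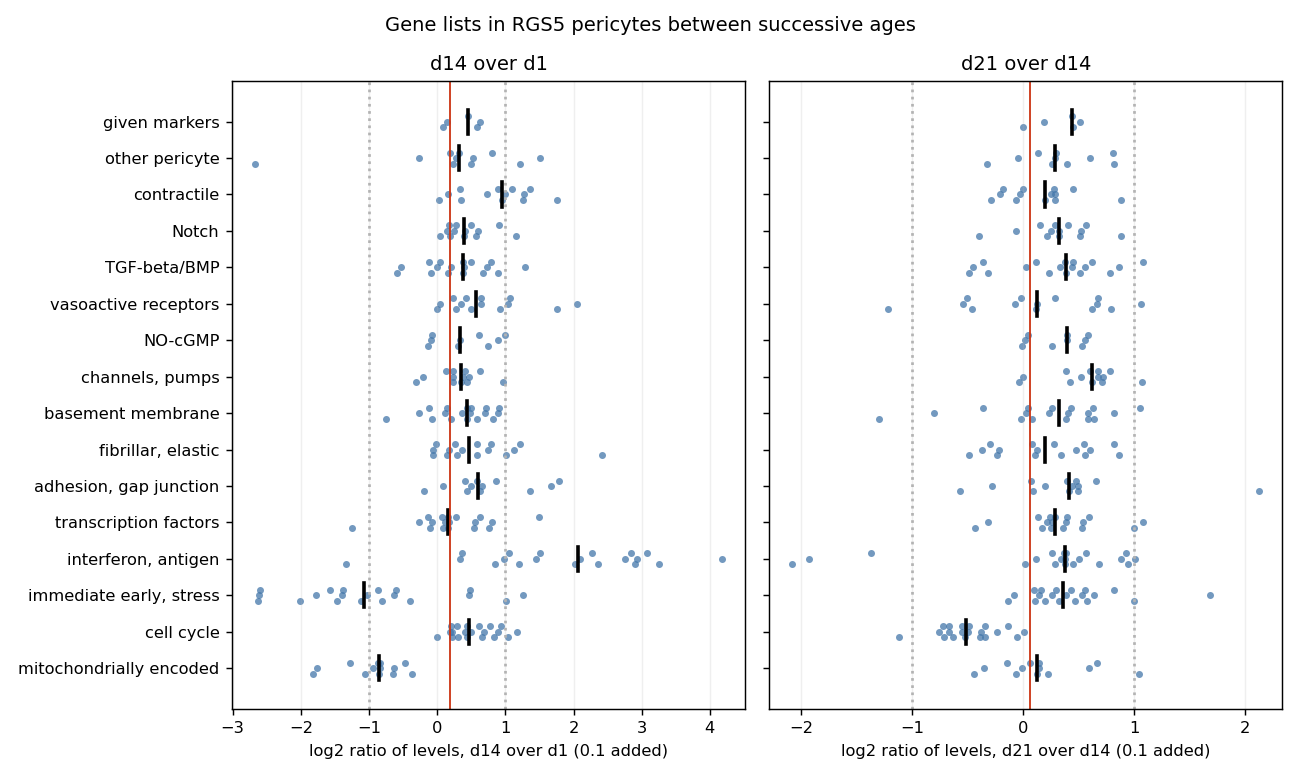
Log2 ratios of levels in the RGS5 pericytes (x axis, 0.1 added) for d14 over d1 on the left and d21 over d14 on the right, with 1 point per tested gene, gene lists on the y axis and a black bar at each list's median. The red line marks the median of all tested genes (0.18 and 0.06) and the dotted lines 2-fold, and of the lists plotted here the interferon and immediate early lists lie farthest from the red line on the left, with medians of 2.06 and −1.08.

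Among secreted signals, CXCL14, a chemokine of stromal cells, was at a level of 10.8, 32.8 and 30.8 in the pericytes, below the 43.7, 206 and 68.2 of the fibroblasts. CCL2, a monocyte chemokine, was at 5.72, 4.27 and 3.59, and IL34, a ligand of the macrophage receptor CSF1R, at 0.627, 1.02 and 1.28. ANGPT1 was at 0.894, 1.05 and 1.40 and TGFB2 at 1.17, 2.01 and 2.91. CCL5, a chemokine of cytotoxic lymphocytes, was at 0.330, 11.06 and 38.4 in the pericytes and at 0.362, 9.84 and 27.5 in the fibroblasts. Its level in the pericytes without EPCAM, PTPRC or CD3E gave log2 ratios of 2.78 and 2.82 where all pericytes gave 4.70 and 1.78. The part of other cells' RNA in it was not tested.

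Of the cell cycle list, HMGB2 was the most abundant gene, at 4.33, 5.06 and 4.88. TOP2A, a topoisomerase of dividing cells, was seen in 4.00%, 3.50% and 3.99% of thinned pericytes, against 1.94%, 8.66% and 11.4% of T cells. The 20 genes summed to 14.0, 19.03 and 13.8, and to 17.4, 17.1 and 9.64 without the pericytes holding EPCAM, PTPRC or CD3E. From d1 to d14, 2 of 20 genes were higher, with a median of 0.47, against 3.71% of all genes. Without those barcodes 0 of 19 were higher, with a median of −0.08, against 4.28% of all genes. From d14 to d21 the list's median log2 ratio was −0.51, with 1 gene, CCNB1, more than 2-fold lower, against 1.61% of all genes. Without the pericytes holding EPCAM, PTPRC or CD3E, 6 of 19 genes were lower, against 0.919% of all genes, and the median was −0.53.

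NOTCH3 and KCNJ8 were not seen in the same share of the pericytes. Both genes were seen in 49.4% of the pericytes at d1, 77.4% at d14 and 61.6% at d21, and these cells were deeper, with a median of 3266, 5298 and 3505 UMIs. Only NOTCH3 was seen in 31.9%, 12.0% and 27.2% and only KCNJ8 in 18.7%, 10.6% and 11.2%. At a fixed 1000 UMIs, PDGFRB was seen in 35.3%, 56.5% and 62.2% of the cells with NOTCH3 only and in 37.7%, 52.8% and 68.4% of those with KCNJ8 only. MYH11 was at a level of 2.81, 9.21 and 7.62 in the cells with NOTCH3 only and of 1.85, 4.52 and 3.19 in those with KCNJ8 only. ACTA2 was at 17.1, 59.3 and 34.0 in the former and 12.1, 36.0 and 17.9 in the latter. At 1000 UMIs these orders did not hold in every library, with MYH11 seen at d1 in 27.9% of the former and 28.6% of the latter and ACTA2 at d14 in 85.5% and 86.8%.

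The 1509 pericytes of d1, d14 and d21 fell into 9 sub-clusters, which are given by number and leading genes as a description of their variety. Sub-clusters 1 and 5, with 316 and 209 cells, had high PLAU, the urokinase, and CPM, and low RERGL. Sub-cluster 1 was led by PRRX2, CPM, OLFML2A and TGFB2 and had KCNJ8 at 7.85, CSPG4 at 3.15 and MGP at 1.28. Sub-cluster 5 was led by ANGPTL4 and had FOS at 24.5, ACTA2 at 15.2 and MGP at 0.550. It held 120 cells of d1, 49 of d14 and 40 of d21, and sub-cluster 1 held 45, 107 and 164.

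Sub-clusters 2, 3 and 4, with 268, 217 and 213 cells, shared high PCP4 and ITGA7, and over the 3 libraries together high ANGPT1 and MGP. PCP4 was at 12.8, 14.5 and 11.7 in them, against 5.19 and 3.54 in sub-clusters 1 and 5, and MGP at 10.8, 11.09 and 10.1. At d1 MGP did not follow this order, at 0.591, 1.31 and 2.91 in sub-clusters 2, 3 and 4 and 2.14 in sub-cluster 1, and ANGPT1 in sub-cluster 3 was at 0.955 (8 UMIs) beside 0.882 in sub-cluster 5. Sub-cluster 2 was led by CCL2 (14.0), RGS16 and CXCL2 and had FOS at 28.0. Sub-cluster 3, with the lowest median depth of the 9 at 2050 UMIs, was led by PLPP3 and NDUFA4L2 (5.70) and had ANGPT1 at 3.19. Sub-cluster 4 was led by contractile genes, with MYH11 at 11.3, ACTA2 at 76.1 and TAGLN at 37.5, and its NOTCH3 was at 8.74. RERGL was at 2.81, 2.70 and 2.37 in sub-clusters 2, 3 and 4, against 0.204 and 0.422 in sub-clusters 1 and 5. Whether any of these sub-clusters holds vascular smooth muscle cells was not tested.

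The 4 smaller sub-clusters were led by genes of division or of other cell types. Sub-cluster 7, with 69 cells (33 of d1, 29 of d14 and 7 of d21), was led by TOP2A (10.2) and CENPF and kept RGS5 at 24.0 and PDGFRB at 6.91. Sub-cluster 6, with 153 cells of which 96.1% held EPCAM, PTPRC or CD3E, was led by CCL5 (72.2), NKG7 and PTPRC, with RGS5 at 18.3. Sub-cluster 8, with 38 cells and a median of 14523 UMIs, was led by KRT19 and KRT8 (29.5), with RGS5 at 3.32. Sub-cluster 9, with 26 cells, was led by LUM, DPT and DCN (14.1), with PDGFRA at 3.56 and RGS5 at 16.2. Sub-clusters 6, 8 and 9 made up 14.4% of the pericytes, 9.56% at d1, 16.4% at d14 and 16.2% at d21. Without them 240 of 7711 genes (3.112%) were higher and 170 (2.205%) lower between d1 and d14. The interferon list then had 14 of 19 higher and the contractile list 5 of 13.

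**Figure D5:**
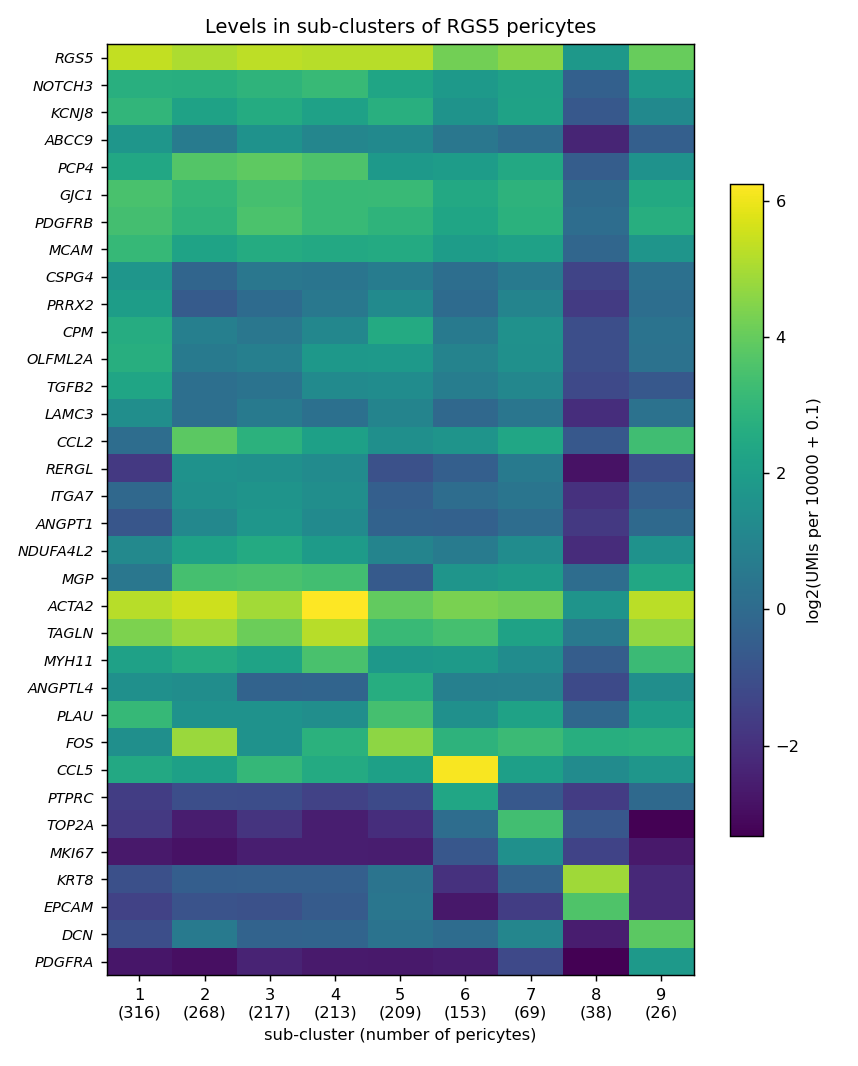
Levels of 34 genes (rows, colour as log2 of UMIs per 10000 with 0.1 added) in the 9 sub-clusters of RGS5 pericytes (columns, number of cells in brackets). Sub-clusters 2, 3 and 4 share PCP4 and ITGA7, sub-clusters 1 and 5 share CPM and PLAU, and sub-clusters 6, 8 and 9 carry CCL5 and PTPRC, KRT8 and EPCAM, and DCN and PDGFRA.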

How the data were processed

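For each library the authors deposited a matrix of UMI counts per gene and barcode, made with Cell Ranger 3.1.0, which aligns with STAR, on the susScr11 assembly according to the submitters' processing notes, and not normalized. The labels name kit V3 and the paper another kit version, and the matrices hold more barcodes (15350, 14142, 10824, 16273 and 16975 in age order) than the forced cell number that the paper describes. Its filter of 200 genes leaves 15218, 14142, 10272, 16177 and 16892, the cells used here, with 83394038, 80196009, 47921183, 91863866 and 69522315 counts. All 20648 genes matched the RefSeq annotation of Sscrofa11.1, from which coordinates were taken. Of 401 genes listed, 391 were measured.

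The pericytes and comparison gates were taken from raw counts. No doublet caller was run, and pericytes with EPCAM, PTPRC or CD3E, or in sub-clusters led by other cell types' genes, were left out as alternatives. A level is the summed count per 10000 counts of the same cells. Genes with at least 30 UMIs in 1 of the 2 libraries (for gates, over the pericytes) were compared as log2 ratios with 0.1 added, which understates the change of low genes, and past 2-fold is a rule of size. Intervals are exact Clopper-Pearson, Poisson or conditional 95% intervals from SciPy 1.17.1 and cover counting error only, and those of ratios have nothing added. Sub-clusters came from 1500 variable genes, 15 components, 15 neighbours and Leiden clustering at resolution 0.7 (scanpy 1.11.5, igraph 0.11.9) after centring each library. The ratio step was tested on simulated data.

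Named genes were those of the gene lists, the 10 largest and 10 lowest ratios per pair of ages (among genes at least as high in the pericytes as in the other cells of the library where they were higher, without mitochondrially encoded genes and LOC identifiers), the 10 of highest fold over each gate in its lowest library and the 10 most abundant besides mitochondrially encoded and ribosomal protein genes. Some genes that meet this rule are not reported here. Genes below the gates and leading genes of sub-clusters were named after their values were seen. The members and lists were chosen with earlier results of these data known. Sequences were not used here. With 1 library of 5 mixed piglets per age there was no test.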

Additional observations from a re-analysis of the deposited data

How the results depend on the processing

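No paired analysis was possible because each age is 1 library and no test was made. Removal of sub-clusters, removal of the largest d14 barcode and centring were chosen after seeing the data. The shares at d1, d14 and d21 moved to 2.23%, within counting error and 2.72% with at least 5 RGS5 UMIs. In the same order they were 3.50%, 3.51% and 3.92% over cells with at least 500 genes, 3.65%, 3.60% and 4.03% over cells under 20% mitochondrially encoded counts (0.101% at d0), 2.21%, 2.92% and 2.79% with at least 2 UMIs of NOTCH3 and KCNJ8, 1.66%, 2.36% and 2.11% without EPCAM, PTPRC or CD3E, and 2.74%, 2.67% and 2.79% without the sub-clusters of other cell types. After thinning to 1000 UMIs they were 1.24%, 1.75% and 2.06% (0.00722% at d0), against 3.51%, 3.59% and 4.06% for the same cells unthinned. With ACTG2 at 0 the share at d14 was 2.91%, and at d7 it was 0 with at least 5 RGS5 UMIs or 2 of NOTCH3 and KCNJ8.

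Counts depended most on the number added to the levels. With 0.01 added, 884 genes were higher from d1 to d14, and 403 higher and 367 lower from d14 to d21. With 1 added the counts were 55 and 51, and 5 and 18. Genes above smooth muscle, fibroblast, endothelial, T cell and epithelial gates numbered 373, 410, 1124, 2082 and 1810 with 0.01 added and 33, 59, 120, 191 and 193 with 1 added. From d1 to d14, 116 genes were lower without EPCAM, PTPRC or CD3E, 170 without the sub-clusters and 151 with at least 100 UMIs. 232 were higher after centring and 703 after thinning. From d14 to d21, 86 were lower with at least 5 RGS5 UMIs, 67 without EPCAM, PTPRC or CD3E, 63 without the sub-clusters, 74 without the largest d14 barcode and 44 as a mean per cell, and 341 were higher after thinning.

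Of 640 alternative values for 40 results on named genes, 502 kept their size, 109 moved and 29 changed sign, all 29 for OLFM4 or for the 10 lowest ratios of d21 over d14. From d1 to d14 OLFM4 went to −0.44 without EPCAM, PTPRC or CD3E and −0.78 without the sub-clusters. From d14 to d21 without EPCAM, PTPRC or CD3E, AGR2 went to 0.93, S100A2 to 0.14, MUC2 to 0.16, PI3 to 0.63, LGALS3 to 0.97, REG4 to 0.23, KRT8 to 1.37, LGALS2 to 0.25 and DMBT1 to 0.24. Without the sub-clusters they went to 0.80, 0.24, 0.11, 1.12, 1.07, 0.13, 1.67, 0.89 and 0.18, and FCGBP to 0.028. After thinning AGR2 went to 0.63, S100A2 to 0.10, LGALS3 to 0.18 and KRT8 to 0.011, and as a mean per cell AGR2 to 0.092, LGALS3 to 0.17, KRT8 to 0.43 and LGALS2 to 0.16. These alternatives leave out or weigh down the d14 barcodes with the most UMIs, and other causes were not tested. At d0 and d7 the depth of 6 and 2 cells allows no levels to be compared.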

Other observations

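Several gene groups lay outside the comparisons above. Between d1 and d14, 3.71% of all tested genes were more than 2-fold higher and 3.36% lower. Of 9 tested genes of the regulator of G protein signalling family, RGS5 among them, 1 was more than 2-fold higher at d14 than at d1, RGS6, at levels of 0.0968, 0.354 and 0.553 at d1, d14 and d21. RGS2 was at 0.564, 1.05 and 1.74 and RGS4 at 0.450, 0.586 and 1.06, while RGS16 was at 1.41, 0.674 and 0.870. RGS1, known from lymphocytes, was at 0.268, 0.463 and 1.89.

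Of 13 tested Notch genes 1, NRARP, was more than 2-fold higher at d14 than at d1 and 0 were lower, and between d14 and d21 0 passed in either direction. The ligand JAG1 was at 0.758, 1.03 and 1.58 and HEY2, a target, at 0.285, 0.483 and 0.674. Of 14 hypoxia and glycolysis genes 2 were higher at d14 than at d1 and 1 lower, the vasodilator peptide gene ADM, at 2.16, 0.894 and 0.723. Of 12 tested without the pericytes holding EPCAM, PTPRC or CD3E, 1 was higher and 0 were lower. Of 11 growth factor and imprinted genes 3 were higher and 1 lower, PEG3, an imprinted zinc finger gene at 0.336, 0.0943 and 0.174. Without those barcodes 3 of 10 were higher and 0 lower. IGF1 was at 0.120, 0.417 and 0.308. Of 13 mitochondrially encoded genes 0 were higher and 4 lower, beside the lower share of such counts at d14.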
